A study of Mus musculus with 6 samples.

Results

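The 10 genes described here belong to the BCL2 family, which sets whether a cell survives or dies through its mitochondria. They are the rows of the deposited expression table named Bcl2, Bcl2l1, Mcl1, Bcl2a1b and Bcl2a1d, which oppose death, and Bax, Bak1, Bid, Bcl2l11 and Pmaip1, which promote it. All 10 were found among the 18341 genes of the table, and all 10 had a mean of 1 CPM or more (CPM gives the reads of a gene as a share of its library, on 1 fixed scale for all libraries), the level required for testing. RNA had been sequenced from monocytes sorted out of subcutaneous tumours that B16.F10 cells, a pigmented mouse melanoma line, formed in C57BL/6 mice. The BAFF group (3 libraries) came from tumours of cells overexpressing BAFF, the B cell activating factor, and the control group (3 libraries) from tumours of control cells, both at day 13 after inoculation. The overexpression was in the injected tumour cells, and the label of the source material names the melanoma line and not the sorted cells. No label states the age or sex of the mice, the construct, the sorting gate or any pooling of animals. Separate mice behind the 3 libraries of each group are not stated either, so p-values measure only the spread between these libraries, which may be technical.

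Proteins of the family meet at the outer mitochondrial membrane. Bax and Bak1 encode the effectors that open it and release cytochrome c, while Bcl2, Bcl2l1 (BCL-XL), Mcl1 and the Bcl2a1 genes (A1) encode guardians that hold the effectors and their activators. The BH3-only proteins sense stress: BIM (Bcl2l11) and BID can bind all guardians and activate the effectors, whereas NOXA (Pmaip1) binds mainly MCL1 and A1. Myeloid cells are known for their reliance on MCL1 and A1, and MCL1 is a short-lived protein whose amount follows its synthesis closely.

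The libraries differed in depth and content. By the step between low values, 1 CPM stood for 4.72 to 27.6 reads, and the listed genes held 39.8% to 66.1% of each library's total. The ribosomal RNA gene CT010467.1 reached 27017 and 43052 CPM in control tumours 2 and 3, against 299 to 5880 CPM elsewhere. Monocyte markers were high in every library (their sum was 5951 to 12190 CPM), with Lyz2, Cd14 and F13a1 the most abundant, and 1 of 10 was higher on deposited values. After the RLE scaling described below 4 were higher, and the sums were 9956 to 10680 CPM in BAFF tumour libraries and 6947 to 8881 CPM in controls. Markers of other cells moved with the groups. Melanoma markers, led by Dct, Tyrp1 and Mitf, summed to 147 to 224 CPM in BAFF tumour libraries and 458 to 796 CPM in controls, with 7 of 9 lower in the test on deposited values. Dividing cell markers, led by Mki67, Top2a and Cenpf, summed to 92.8 to 97.2 CPM against 177 to 364 CPM, with 8 of 9 lower, where 3.5% of all tested genes were called lower. Neutrophil markers had 4 of 7 tested members higher, with sums that overlapped (176 to 238 and 87.6 to 194 CPM). After RLE 2 were higher, and the sums did not overlap (164 to 223 and 98.2 to 153 CPM). Macrophage markers had 0 of 9 called on deposited values, where the sums overlapped. After RLE 5 were lower, and the sums did not overlap (2994 to 3259 and 4284 to 5298 CPM). B and plasma cell markers had 2 of 5 tested members lower and 3 after RLE, with Cd79a at 0 in BAFF tumour 1. Dendritic cell markers had 2 of 7 higher on both scales, fibroblast and endothelium markers 2 of 7 higher and 1 lower after RLE only, and T and NK cell markers 0 of 7 called on either. For all these counts, the shares over all tested genes were 1.81% higher and 3.5% lower on deposited values. After RLE they were 7.18% higher and 9.91% lower. In bulk RNA, fewer cells of a type and less RNA per cell cannot be told apart. The part of these cells in the results below was not tested.

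Mcl1 and 2 death genes whose products it holds, Bcl2l11 and Pmaip1, stood higher in BAFF tumour libraries, together with Bcl2a1d, once the libraries were brought to a common scale. On the deposited values, limma called 0 of the 10 members (smallest adjusted p = 0.0777, for Mcl1), where 5.31% of the 12824 tested genes were called, 1.81% as higher. At an unadjusted p under 0.05, 4 members were higher on that scale (Mcl1, Bcl2l11, Pmaip1 and Bcl2a1d), beside 9.54% of all genes. Median-of-ratios size factors (RLE), which make the typical gene equal between libraries, ranged from 0.67 in control tumour 3 to 1.27 in control tumour 1. After them limma called these same 4 members as higher (adjusted p under 0.05) and 0 as lower, against 17.1% of all genes called, 7.18% as higher and 9.91% as lower. Of the 4, 2 oppose death and 2 promote it, and 6 did not pass. The median log2 fold change of the 10 was 0.43 on the deposited scale, beside 0.23 over all tested genes, and 0.18 after RLE, beside 0.0086. The deposited fold changes therefore carry a shift of the whole table, and those after RLE are given first below. Each is BAFF tumour minus control tumour on the log2(CPM + 1) scale with its SE.

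**Figure D1:**
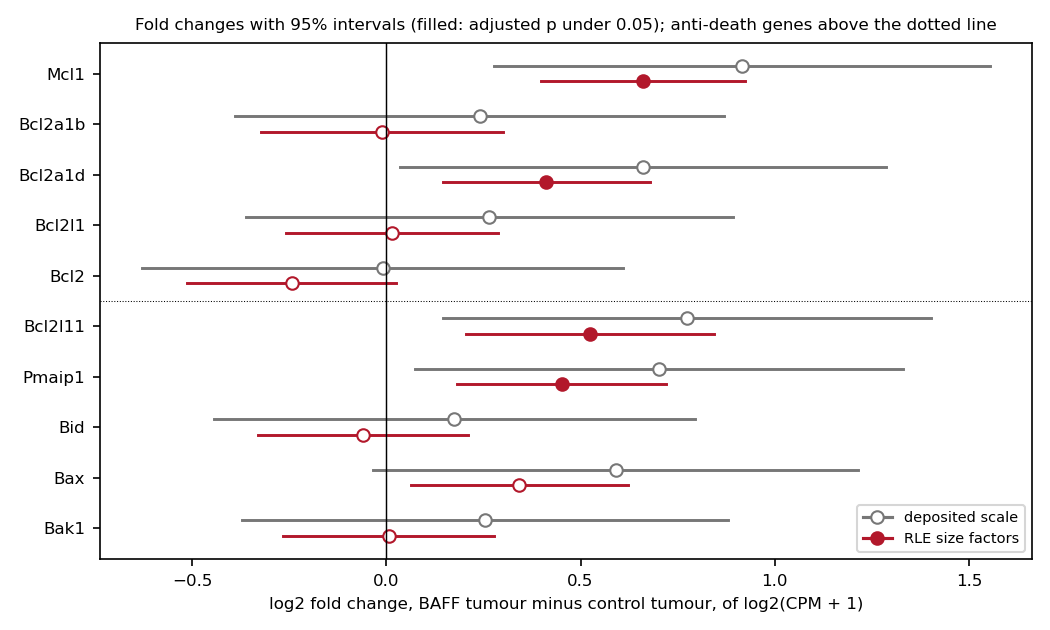
Log2 fold change of each member (horizontal axis, BAFF tumour minus control tumour, on the log2(CPM + 1) scale) with its 95% interval, on the deposited scale in grey and after RLE size factors in red. Filled points passed at an adjusted p under 0.05: Mcl1, Bcl2a1d, Bcl2l11 and Pmaip1 after RLE, and none on the deposited scale.

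Mcl1 (chr3:95658788-95663176, plus strand, GRCm38) was the most abundant member. It stood at 1470.2, 1399.8 and 1199.97 CPM in BAFF tumours 1, 2 and 3, and at 1044, 712 and 494 CPM in control tumours 1, 2 and 3. Every BAFF tumour library lay above every control library, on the deposited values and after RLE. After RLE the group means were 1242 ± 127 and 783 ± 43.3 CPM (SD, n = 3 each), a 1.58-fold difference (log2 0.66 ± 0.12, limma adjusted p = 0.00298). The deposited values gave log2 0.91 ± 0.33 (adjusted p = 0.0777). Leaving out each library in turn after RLE, Mcl1 was called 6 of 6 times, with adjusted p from 0.00335 to 0.0161. It was also called within the 4 shallow libraries (log2 0.70, adjusted p = 0.03). These were BAFF tumours 1 and 3 and control tumours 2 and 3, so both controls there were those of high ribosomal RNA. Without both control libraries of high ribosomal RNA, which leaves control tumour 1 alone in its group and assumes that it varies like the others, the fold change was 0.57 and the adjusted p 0.0978.

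Per exonic kilobase, a scale on which genes can be set side by side, Mcl1 led the 18 family genes of the table in each of the 6 libraries, with 145 to 430 CPM per kilobase. Among the 10 members alone, Bcl2a1b followed at 100.1 to 202 and Bcl2a1d at 38.7 to 105 CPM per kilobase. Pmaip1 (23.9 to 47.2), Bax (16.1 to 38.7) and Bak1 (14.3 to 28.9) were the next members. Ranges over the libraries overlapped between neighbours in that order. Within each library the order held, except that Bak1 lay slightly above Bax in control tumours 1 and 2. Of the other family genes, Bnip3 had a mean above that of Pmaip1, and Bcl2a1a one above that of Bax. The ranges of Bcl2l1 (10.9 to 18.7) and Bcl2l11 (4.77 to 15.2) overlapped too, with Bcl2l1 higher within every library. Bid (2.86 to 4.74) and Bcl2 (1.11 to 1.90) were the least abundant members. Lengths are merged exons of GENCODE M21, which may not be the annotation behind the counts.

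The promoters of Mcl1 and Bcl2l11 are shown because these opposed genes rose together after RLE. Each window is the 250 bases before the start, from RefSeq on GRCm38.p6, plus strand. The Mcl1 window is chr3:95658471-95658720, just before the first exon on chromosome 3, with its only GC box (GGGCGG, here read on the other strand) in capitals:

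Mcl1: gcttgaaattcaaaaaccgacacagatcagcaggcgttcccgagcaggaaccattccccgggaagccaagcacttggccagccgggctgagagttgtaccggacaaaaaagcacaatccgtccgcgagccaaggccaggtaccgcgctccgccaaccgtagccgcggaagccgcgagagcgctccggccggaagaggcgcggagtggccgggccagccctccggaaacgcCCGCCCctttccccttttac

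The Bcl2l11 window is chr2:128125788-128126037, before the more upstream of its starts on chromosome 2, with a forkhead motif (GTAAACA) in capitals and its 3 GC boxes left in lower case:

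Bcl2l11: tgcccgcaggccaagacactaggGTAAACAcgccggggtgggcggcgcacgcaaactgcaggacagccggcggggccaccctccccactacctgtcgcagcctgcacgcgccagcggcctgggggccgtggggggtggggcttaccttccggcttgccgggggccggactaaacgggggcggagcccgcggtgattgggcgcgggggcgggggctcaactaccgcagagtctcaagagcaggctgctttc

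Motifs, none of which contains another, were searched on both strands in the 12 windows that the table holds for 9 members. The GC box was in 8 of the 12 and in 32.7% of all 32851 windows of this length. GTAAACA, the core that FOXO factors bind, was in 1 of the 12 and in 3.17% of all. The kappa-B consensus of NF-kB was in 1 of 12, a second start of Bcl2l1, and in 7.25% of all. The cAMP response element TGACGTCA was in 0 of 12 and in 1.55% of all. TGANTCA, the AP-1 motif, was in 2 of 12 (Bcl2a1b and Bcl2a1d) and in 6.75% of all, and the hypoxia core ACGTG in 1 of 12 (Bax) and in 16.6%. The p53 half-site consensus was in 1 of 12, the window of Bax, and in 7.13% of all. A match is only a match of letters.

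The A1 genes Bcl2a1b and Bcl2a1d gave different values although they are near-identical copies. Bcl2a1d, on the minus strand (chr9:88723285-88731914, GRCm38), stood at 68.3, 90.8 and 61.0 CPM in BAFF tumours 1, 2 and 3 and at 64.8, 43.1 and 33.4 CPM in control tumours 1, 2 and 3. The groups overlapped on the deposited scale, since control tumour 1 lay above BAFF tumour 3, and did not overlap after RLE. After RLE the means were 66.9 ± 11.5 and 49.5 ± 1.7 CPM (log2 0.41 ± 0.12, limma adjusted p = 0.0371), and the deposited values gave 0.66 ± 0.32 (adjusted p = 0.273). The call held in 1 of the 6 fits without a library, that without BAFF tumour 3, and the adjusted p rose to at most 0.141, without BAFF tumour 2. Bcl2a1b, on the plus strand (chr9:89199209-89207827), stood at 138, 161 and 99.5 CPM in BAFF tumours and at 165, 98.2 and 81.8 CPM in controls. Its highest value was in a control library, and after RLE the means were 121 ± 24.7 and 120.4 ± 11.1 CPM (log2 -0.01 ± 0.14, 95% interval -0.32 to 0.30, adjusted p = 0.971). Its fold change was 0.24 ± 0.32 on the deposited scale.

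Which copy a read came from is uncertain here. The first 150 coding bases of Bcl2a1b, Bcl2a1d and the third copy in the table, Bcl2a1a, hold 7 of the 12 coding positions at which any of the 3 differ, in capitals:

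Bcl2a1b: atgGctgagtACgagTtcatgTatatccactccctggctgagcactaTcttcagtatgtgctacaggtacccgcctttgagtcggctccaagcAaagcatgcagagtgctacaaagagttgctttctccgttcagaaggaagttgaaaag

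Bcl2a1d: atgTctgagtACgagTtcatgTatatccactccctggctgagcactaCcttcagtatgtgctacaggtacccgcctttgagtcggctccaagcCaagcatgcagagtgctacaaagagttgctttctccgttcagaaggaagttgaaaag

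Bcl2a1a: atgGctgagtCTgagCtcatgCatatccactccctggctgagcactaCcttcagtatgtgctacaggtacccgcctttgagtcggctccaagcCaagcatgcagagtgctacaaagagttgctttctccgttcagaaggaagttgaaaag

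Over the 516 coding bases, Bcl2a1b and Bcl2a1d differed at 6 (98.8% identity), Bcl2a1b and Bcl2a1a at 11 and Bcl2a1d and Bcl2a1a at 7. Of the 101-base windows of their transcripts, the read length, 56.3% of Bcl2a1b and 54.0% of Bcl2a1d occurred without a mismatch in a transcript of another gene. Bcl2a1b also shares 49.1% of its exonic bases with the annotated gene Gm29094. Summed as 1 feature, Bcl2a1a, Bcl2a1b and Bcl2a1d stood after RLE at 212 ± 37.1 and 195 ± 13.8 CPM (log2 0.11 ± 0.13, limma adjusted p = 0.619), and the groups overlapped. Within the sum, Bcl2a1d held 29.8%, 32.0% and 32.7% in BAFF tumours 1, 2 and 3 and 25.5%, 26.5% and 24.2% in control tumours 1, 2 and 3. This share is independent of the library scale, and it did not overlap between the groups. Such a lack of overlap is common here: within-library differences did not overlap between groups in 37.5% of all pairs of tested genes.

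**Figure D2:**
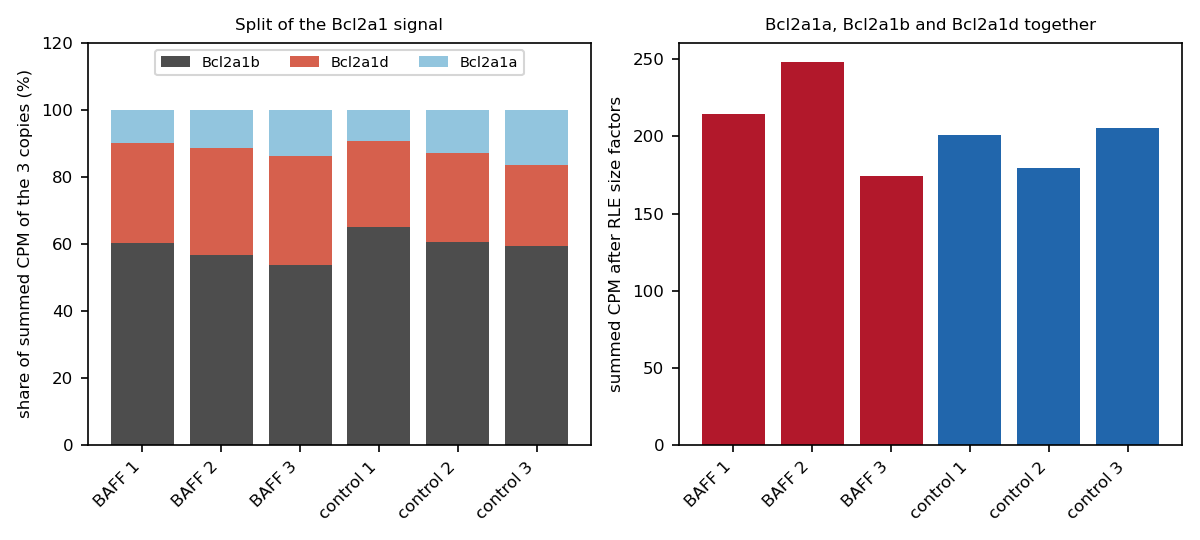
Left, the share of the summed CPM of the near-identical Bcl2a1 copies that each copy held (vertical axis, percent) in each library; right, their sum in CPM after RLE size factors. The Bcl2a1d share was 29.8% to 32.7% in BAFF tumour libraries and 24.2% to 26.5% in controls, while the sums overlapped.

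The other guardians, Bcl2l1 and Bcl2, were not called on either scale. Bcl2l1 (chr2:152780668-152831728, minus strand), which encodes BCL-XL, stood at 82.9, 82.5 and 85.8 CPM in BAFF tumours 1, 2 and 3 and at 81.0, 82.6 and 50.2 CPM in control tumours 1, 2 and 3. On these deposited values only control tumour 3, the shallowest library, was low. After RLE control tumours 1, 2 and 3 stood at 63.9, 91.3 and 74.9 CPM, so control tumour 1 was then the lowest. The means after RLE were 76.7 ± 4.1 and 76.7 ± 13.8 CPM (log2 0.01 ± 0.13, 95% interval -0.26 to 0.29). Bcl2 (chr1:106538178-106714274, minus strand) was scarce, at 12.0, 13.8 and 13.1 CPM in BAFF tumours and 17.4, 12.5 and 10.2 CPM in controls, where the value of control tumour 3 corresponds to an estimated 48 reads. After RLE every BAFF tumour library lay below every control, 11.9 ± 0.55 against 14.2 ± 0.80 CPM, but the difference did not pass (log2 -0.24 ± 0.12, limma adjusted p = 0.208). On deposited values it was -0.01 ± 0.32.

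Of the BH3-only genes, Bcl2l11 and Pmaip1 were called after RLE and Bid was not. Bcl2l11 (chr2:128126038-128162547, plus strand), the gene of BIM, stood at 119.9, 113 and 122 CPM in BAFF tumours 1, 2 and 3 and at 107, 78.5 and 38.3 CPM in control tumours 1, 2 and 3. The BAFF tumour libraries were close together and all above the controls, which spread widely. After RLE the means were 108 ± 8.1 and 76.2 ± 16.5 CPM (log2 0.52 ± 0.15, 1.44-fold, limma adjusted p = 0.029), and the deposited values gave 0.77 ± 0.32 (adjusted p = 0.163). Without control tumour 3, the library with its lowest value, the log2 fold change after RLE was 0.33 (adjusted p = 0.0731). The call was also lost without BAFF tumour 1, 2 or 3 (adjusted p = 0.0852, 0.0524 and 0.0781) and held without control tumour 1 or 2.

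Pmaip1, the gene of NOXA, stood at 109.98, 125 and 129 CPM in BAFF tumours 1, 2 and 3 and at 93.3, 66.6 and 65.4 CPM in control tumours 1, 2 and 3. The groups did not overlap on either scale. After RLE the means were 111 ± 9.05 and 81.6 ± 13.8 CPM (log2 0.45 ± 0.12, 1.37-fold, limma adjusted p = 0.0261), and the deposited values gave 0.70 ± 0.32 (adjusted p = 0.231). Without BAFF tumour 2, BAFF tumour 3, control tumour 1 or control tumour 2 the adjusted p was 0.0738 to 0.0973, and the call held without BAFF tumour 1 or control tumour 3. Without both control libraries of high ribosomal RNA, which leaves control tumour 1 as the only control, the log2 fold change of Pmaip1 was 0.57. Within the 4 shallow libraries the adjusted p was 0.176 for Pmaip1 and 0.0534 for Bcl2l11.

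Bid links death receptors to mitochondria once caspase 8 has cut its protein. Its gene (chr6:120891930-120916853, minus strand), 17.7% of whose exonic bases overlap Bcl2l13 on the other strand, stood at 14.4, 15.3 and 15.8 CPM in BAFF tumours and 16.8, 13.8 and 10.2 CPM in controls, with control tumour 1 the highest of all. Its fold change was 0.17 ± 0.32 on the deposited scale and -0.06 ± 0.12 after RLE (95% interval -0.33 to 0.21).

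The effectors Bax and Bak1 did not pass on either scale. Bax (chr7:45461697-45466898, minus strand) stood at 48.4, 61.0 and 43.1 CPM in BAFF tumours 1, 2 and 3 and at 40.0, 35.7 and 25.4 CPM in control tumours 1, 2 and 3, with no overlap. After RLE the means were 46.4 ± 6.6 and 36.3 ± 4.2 CPM (log2 0.34 ± 0.13, 95% interval 0.06 to 0.62, limma adjusted p = 0.0906). Bak1 (chr17:27019810-27029009, minus strand; 25.5% of exonic bases overlap Ggnbp1) stood at 57.9, 69.6 and 50.2 CPM in BAFF tumours and at 61.4, 55.6 and 34.5 CPM in controls, where control tumour 1 lay above BAFF tumours 1 and 3. After RLE Bak1 averaged 54.1 ± 6.9 and 53.8 ± 6.8 CPM (log2 0.01 ± 0.12, 95% interval -0.27 to 0.28). Counts of members without overlap were 4 higher on the deposited scale (Mcl1, Bax, Bcl2l11 and Pmaip1), where 11.4% of all genes were. After RLE 5 were higher, with Bcl2a1d added, beside 17.3% of all genes, and Bcl2 was lower, beside 17.8%.

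**Figure D3:**
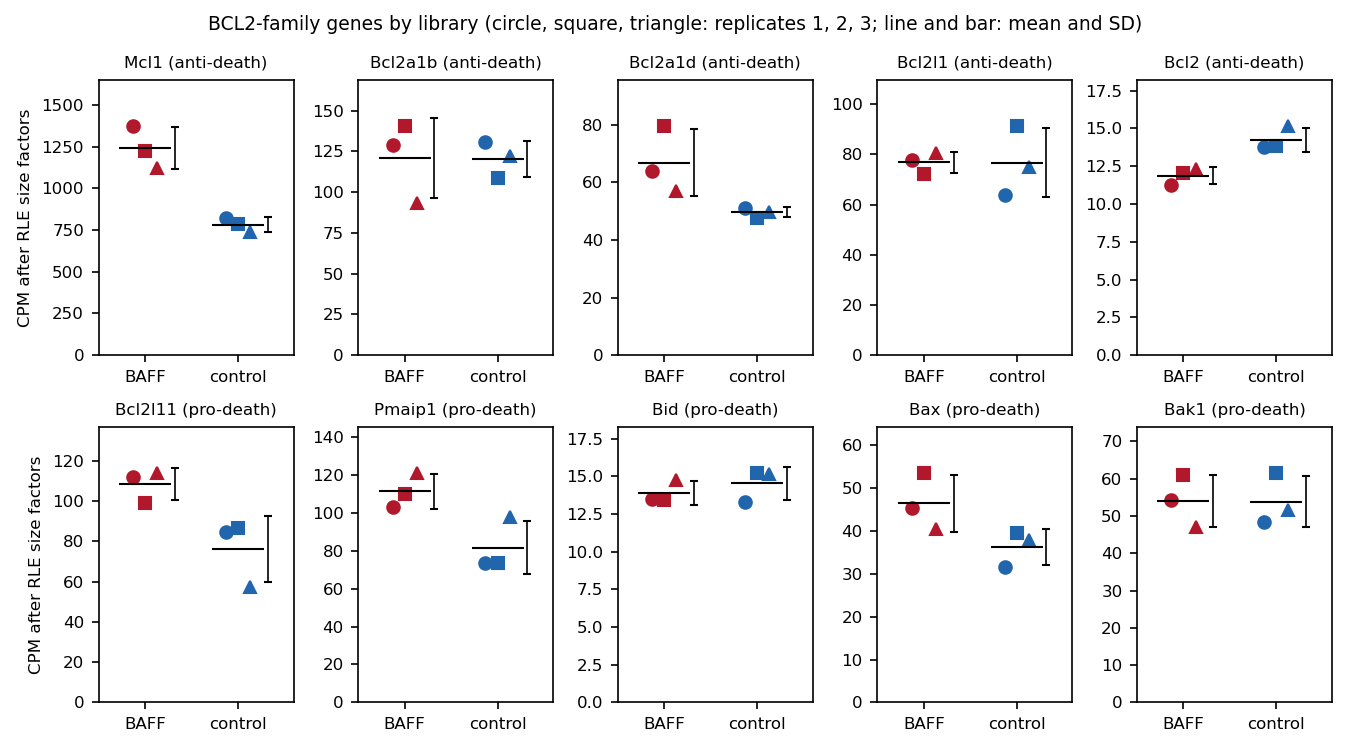
CPM after RLE size factors (vertical axes, each starting at 0) of the 10 members in the BAFF tumour libraries (red) and control libraries (blue); circles, squares and triangles are replicates 1, 2 and 3, lines are means and bars SD. Mcl1, Bcl2a1d, Bcl2l11, Pmaip1 and Bax do not overlap between groups with BAFF higher, and Bcl2 does not overlap with BAFF lower.

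**Figure D4:**
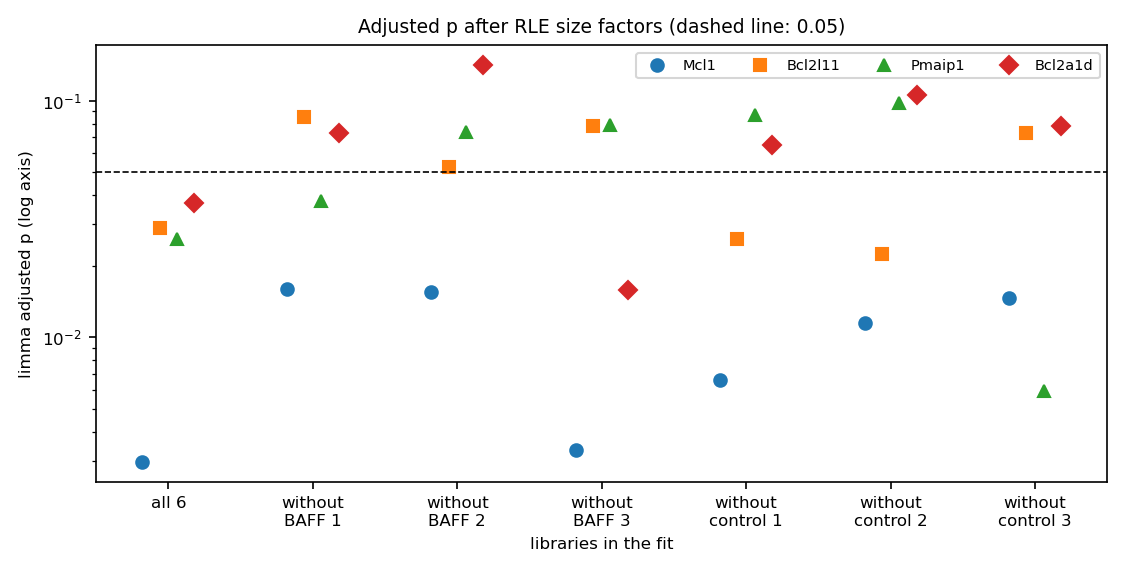
Limma adjusted p (vertical log axis) after RLE size factors for the 4 members called with all 6 libraries, and in the fits without 1 library (horizontal axis); the dashed line is 0.05. Mcl1 stays under the line in every fit, and the other genes cross it in at least 4 of the 6.

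The anti-death and pro-death genes were compared within each library, where the library scale nearly cancels. The mean log2(CPM + 1) of the 5 anti-death members exceeded that of the 5 pro-death members by 0.94, 0.93 and 0.78 in BAFF tumours 1, 2 and 3 and by 1.04, 0.88 and 0.98 in control tumours 1, 2 and 3. The groups overlapped, and their means differed by -0.09, with SD of 0.085 and 0.080. On deposited values the BAFF minus control difference was 0.41 for the mean of the anti-death genes and 0.50 for that of the pro-death genes. No test was made of these averages or sums, since the members were chosen with results of these data known.

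The difference of the averages is the mean over all single pairs, so single pairs spread around it by construction. Of the 25 pairs of an anti-death with a pro-death gene, the within-library difference did not overlap between groups in 10, 4 with the anti-death gene higher relative to its partner in BAFF tumour libraries and 6 with it lower. Over all pairs of tested genes 37.5% did not overlap, so the 10 are near the background. Mcl1 relative to Bak1 and to Bid was 0.66 and 0.74 higher in BAFF tumour libraries, without overlap. Against Bcl2l11 the Mcl1 difference was 3.605, 3.616 and 3.29 in BAFF tumours 1, 2 and 3 and 3.27, 3.17 and 3.66 in control tumours 1, 2 and 3, which overlapped. Against Pmaip1 it was 3.73, 3.47 and 3.21 in BAFF tumours and 3.47, 3.40 and 2.90 in controls, which overlapped too. Relative to Bcl2l11 the differences for Bcl2 and Bcl2l1 were -0.78 and -0.51, and relative to Pmaip1 they were -0.71 and -0.44, all without overlap. Among the guardians, the difference of Mcl1 to Bcl2 was 6.82, 6.57 and 6.41 in BAFF tumours 1, 2 and 3 and 5.83, 5.72 and 5.47 in control tumours 1, 2 and 3.

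**Figure D5:**
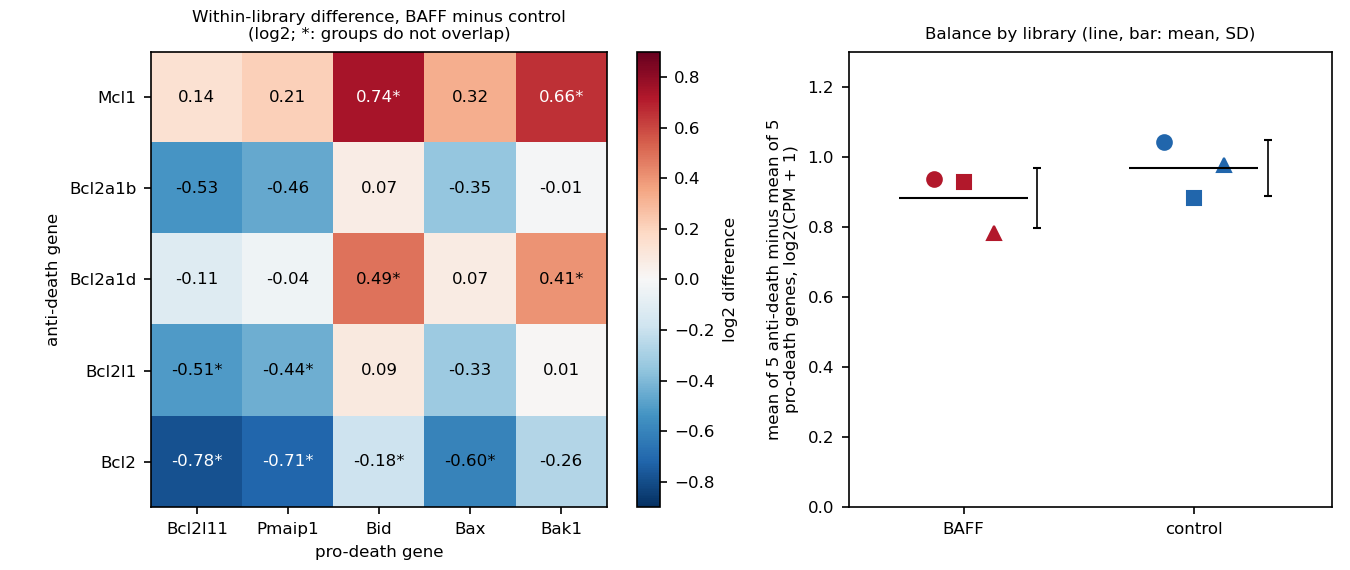
Left, the BAFF minus control mean of the within-library log2 difference for each anti-death (rows) and pro-death gene (columns), with a star where the groups do not overlap (10 of 25). Right, the mean of the anti-death minus that of the pro-death members in each library (vertical axis, log2(CPM + 1)), with means and SD, which overlap between groups.

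Of the other family genes fixed for this account, 8 were in the table and 7 were tested. After RLE 1 was called, as higher, and on deposited values 0 (1 higher at an unadjusted p under 0.05). Beside them, 7.18% of all tested genes were called higher after RLE and 1.81% on deposited values (9.54% at an unadjusted p under 0.05). Bnip3, a hypoxia-inducible BH3-like gene of mitochondrial turnover, stood at 199, 179.6 and 123.4 CPM in BAFF tumours and 129, 106 and 67.3 CPM in controls (log2 0.49 ± 0.15 after RLE, limma adjusted p = 0.0422; 0.187 on deposited values), and the groups overlapped. Bnip3 shares 24.2% of its 101-base windows with other genes. Its relative Bnip3l did not pass (69.5 ± 13.1 and 56.7 ± 3.4 CPM after RLE, adjusted p = 0.179). The guardian genes Bcl2l2 (BCL-W; log2 0.03 ± 0.14 after RLE) and Bcl2a1a (-0.02 ± 0.18) did not pass. Neither did the BH3-only genes Bbc3 (PUMA; -0.31 ± 0.21), Bad (0.03 ± 0.16) and Bmf (0.14 ± 0.31). On the deposited scale Bcl2a1a stood at 0.23 ± 0.32. Bcl2a1c, at 0.39 and 0.31 CPM on average, was too low to test. Bcl2l10, Bok, Bik and Hrk are not analysed here.

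Downstream of mitochondria, 0 of 16 apoptosome and caspase genes passed on either scale. At an unadjusted p under 0.05 there were 2 on each, Casp6 and Cycs on deposited values and Cycs and Apaf1 after RLE. Of all 12824 tested genes, 2053 had such a p on deposited values and 3919 after RLE, so the list did not stand out. The named members were Casp6 (log2 0.40 ± 0.19 after RLE), Cycs, which encodes cytochrome c (0.39 ± 0.14), Apaf1, the caspase 9 scaffold (0.27 ± 0.089, adjusted p = 0.0612), and Vdac3 (0.22 ± 0.11). The list's median was 0.06 after RLE. Of 7 inhibitor of apoptosis genes 2 passed as higher after RLE (7.18% of all tested genes did) and 0 on the deposited scale (2 at an unadjusted p under 0.05, beside 9.54% of all genes). The median after RLE was 0.24, beside 0.0086 over all genes. Birc3, the NF-kB induced cIAP2, averaged 90.8 ± 10.2 against 58.01 ± 9.97 CPM (0.65 ± 0.13, limma adjusted p = 0.00532), and Naip2, also an inflammasome sensor, 67.3 ± 5.1 against 51.1 ± 7.7 CPM (0.40 ± 0.12, adjusted p = 0.0422). Naip5 (0.29 ± 0.13) and Birc2 (0.24 ± 0.13) did not pass.

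In the death receptor arm 4 of 10 tested genes passed as higher after RLE and 1, Fas, on the deposited scale, beside 7.18% and 1.81% of all tested genes. The median of the 10 was 0.16 after RLE. Fas, the receptor that triggers caspase 8, averaged 9.65 ± 1.2 against 5.04 ± 1.2 CPM after RLE (0.83 ± 0.18, limma adjusted p = 0.00765; 1.03 and 0.0244 on deposited values). Cflar, which encodes the caspase 8 inhibitor FLIP, averaged 193 ± 4.04 and 149.6 ± 21.5 CPM after RLE (0.37 ± 0.11, adjusted p = 0.0405). Ripk3, the necroptosis kinase (0.44 ± 0.12), and Tnfrsf1a, the TNF receptor (0.35 ± 0.097), passed after RLE as well.

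Of 13 tested genes of p53 and its targets, 2 were called higher after RLE and 2 lower, where 7.18% and 9.91% of all genes were, and the other 9 were not called. Their median was -0.02. Mdm2, the p53 inhibitor and target, rose after RLE from 111 ± 32.8 to 166 ± 15.0 CPM (0.62 ± 0.18, limma adjusted p = 0.0313) and Sesn2 from 16.4 ± 1.5 to 26.4 ± 2.5 CPM (0.65 ± 0.12, adjusted p = 0.00352). Sesn1 (-0.72 ± 0.20) and Zmat3 (-0.74 ± 0.17) passed as lower; both are named outside the rule, with their values known. Cdkn1a (0.31 ± 0.24) and Btg2 (0.42 ± 0.15) did not pass. On deposited values 0 of the 13 passed (3 at an unadjusted p under 0.05, beside 2053 of all 12824 tested genes).

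Among 14 genes of factors that control family transcription, 6 passed as higher after RLE and 0 as lower, beside 7.18% and 9.91% of all tested genes, and the median was 0.35. Hif1a also passed on the deposited scale, at 362 ± 29.98 against 185 ± 40.9 CPM (0.99, limma adjusted p = 0.0449; 0.73 ± 0.11 and 0.000794 after RLE). The NF-kB genes Nfkb1 (0.57 ± 0.12), Relb (0.54 ± 0.12) and Nfkb2 (0.54 ± 0.099), and Atf4 of the stress response (0.54 ± 0.096), passed after RLE, as did Stat3 (0.45 ± 0.11). Nfkb2 and Stat3 are named outside the rule, with their values known. Of 9 genes acting on MCL1 or BIM protein, 0 passed as higher and 1 as lower after RLE (9.91% of all genes were lower). On deposited values 0 passed (1 at an unadjusted p under 0.05, beside 2053 of all 12824 tested genes). The gene called lower after RLE was Dynll2, a dynein light chain that can hold BMF, at 6.5 ± 1.6 against 12.5 ± 2.1 CPM (-0.86 ± 0.19, adjusted p = 0.00797). Usp9x, which removes ubiquitin from MCL1 (0.18 ± 0.10), and Dynll1, which holds BIM (0.21 ± 0.12), did not pass.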

How the data were processed

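Gene-level values of 6 libraries were used, 3 of each group, with groups and replicate numbers from the sample titles. The authors deposited 1 table in CPM, a unit read from its values: of the low values, 84.7% to 86.4% per library were whole multiples of 1 step (tolerance 0.02). That share was too small to turn values back into reads, so count models were not used. Bowtie2 2.2.5, STAR 2.4.1d and Partek are listed, with no roles, per the submitters' processing notes. Build, annotation and counting rule: not given in the sources used here. A column named with a missing letter was taken as control tumour 2. Libraries were made with a kit that does not mark strand, per the labels' protocols.

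Limma-trend (limma 3.58.1, R 4.3.3) was run on log2(CPM + 1) for the 12824 genes whose mean reached 1 CPM, on deposited values and after RLE, and p-values were adjusted by Benjamini-Hochberg. The prior degrees of freedom were infinite on deposited values, so SE there do not reflect a gene's own spread, and 7.79 after RLE. No libraries of a group were alike to within sampling noise (chi-square per degree of freedom at least 8.12). This rough check used rounded reads estimated from the step, which are not exact counts. The method was tested on simulated data with the same added spread for every gene and no difference in cell content. That run cannot show how the method does on these libraries, and no result rests on it. The members and lists were chosen with earlier results of these data known. Named were all members and family genes, 4 genes per further list with the smallest deposited p, and abundant genes of the marker lists; some genes of these lists are not reported here. Lengths, overlaps and transcripts came from GENCODE M21, and promoters from RefSeq (GRCm38.p6). Alternatives were other scalings, filters, a pseudocount of 0.1, the replicate block and left-out libraries.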

Additional observations from a re-analysis of the deposited data

How the results depend on the processing

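The deposited scale called 681 genes and 0 members, and rescaling changed both: RLE gave 2192 and 4, upper-quartile factors 2080 and 3 (without Bcl2a1d). The replicate number as a block gave 608 and 0, and with RLE 1940 and 3 (Bcl2a1d had an adjusted p of 0.0509). Same-numbered libraries did not deviate together (correlations -0.049, 0.052 and -0.039). With 3 libraries per group, such correlations cannot settle whether the numbers pair them. Keeping genes of at least 5 CPM gave 316 genes and 0 members. The 4 shallow libraries with RLE gave 947 genes and 1 member, Mcl1. Alternatives chosen after seeing the data were RLE with that filter (1367 and 2, Mcl1 and Pmaip1), with a pseudocount of 0.1 (2125 and 4), with no filter (2416 and 4) and without both control libraries of high ribosomal RNA (1100 and 1). With RLE, leaving out 1 library gave 1349 to 1830 genes and 1 or 2 members called higher in every fit, against 4 with all 6 libraries. Over both scales the range was 170 to 5149 genes and 0 to 6 members. The 5149 genes and 6 members arose on the deposited scale without control tumour 1, where 40.9% of genes were called and the median of all genes was 0.44. No alternative called a member lower. The anti-death minus pro-death difference of mean log2 levels stayed between -0.16 and -0.04. Every alternative weighted the genes equally, and the library scale nearly cancels in this difference. The range therefore does not show how it would depend on weighting genes by their level.

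Of 240 fold changes of members under alternatives, 163 kept direction and side of the threshold, 39 newly passed and 38 changed sign, all of the latter for members not called in the full fits. Bid became -0.0607 after RLE and with RLE plus block, -0.106 with upper-quartile factors, -0.100 in the shallow libraries, and -0.0991, -0.0644 and -0.0406 with RLE and a filter at 5 CPM, a pseudocount of 0.1 or no filter. Bcl2a1b became -0.0107 (RLE, and RLE plus block), -0.0109 (RLE, pseudocount 0.1), -0.0586 (upper-quartile), -0.0721 (shallow libraries), -0.0515 (RLE, filter at 5 CPM) and -0.143 (RLE, without both control libraries of high ribosomal RNA). Bak1 became -0.0415 (upper-quartile), -0.155 (shallow) and -0.0345 (RLE, filter at 5 CPM), and Bcl2l1 -0.0333, -0.0686 and -0.0262 in the same order. Without 1 library, with or without RLE, fold changes ran from -0.13 to 0.33 for Bid, -0.13 to 0.53 for Bcl2a1b, -0.0811 to 0.41 for Bak1, -0.11 to 0.39 for Bcl2l1 and -0.27 to 0.19 for Bcl2. The cause was not tested. The fewest estimated reads behind a member were 48, for Bcl2 and Bid in control tumour 3, which limits both.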
